A study of Homo sapiens with 9 samples.

Results

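The genes of the mitochondrial genome were followed in A549 cells, a lung adenocarcinoma line, in which Cyclin K was depleted with siRNA. The members were the rows of the FPKM tables whose gene symbol began with MT-. There were 9 such rows of 56252 in all, and they named 14 genes, of which 12 encode proteins and 2 encode ribosomal RNAs. Of the 9 rows 7 held 1 gene each. The other rows joined neighbouring genes, MT-ATP8, MT-ATP6 and MT-CO3 in one and MT-ND4L, MT-ND4, MT-ND5 and MT-CYB in the other, so that a joined row gave 1 value for all of its genes. The reference annotation (GENCODE 29) lists 37 genes on this chromosome. No row named the other 23, which are MT-ND6 and the tRNA genes, so that they were not analysed here.

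Cells were transfected for 48 h with scrambled siRNA, with siCyclin K#1 or with siCyclin K#2, each at 50 nM, and total RNA was extracted. Each group had 3 libraries, so that 9 libraries were compared, and all of them came from the same unedited line, transiently transfected. The values are FPKM, which are fragment counts scaled to the length of the feature and to the fragments sequenced, so that a level is relative to the rest of its library and to the length of the feature. Of the low values 97.7% to 98.2% per library came out as whole reads, within 0.02 of a read, which gave an estimated depth of 31333749 to 33767961 reads per library.

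The mitochondrial genome is a small circle present in many copies per cell. It is transcribed on both strands by a dedicated polymerase, POLRMT, with TFAM and TFB2M, and the long transcripts are cut mostly at the tRNAs that lie between the genes. Its proteins are core subunits of the respiratory chain complexes I, III and IV and of ATP synthase, and its 2 rRNAs, 12S (MT-RNR1) and 16S (MT-RNR2), build the mitochondrial ribosome. Every other protein of these complexes comes from the nucleus. Cyclin K, the product of CCNK, is a partner of CDK12 and CDK13, kinases of nuclear RNA polymerase II.

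All 14 genes lie on the plus strand of the GRCh38 mitochondrial chromosome, between chrM:648 and chrM:15887, have no introns, and are 207 to 1812 bases long. Of the 12 protein genes 6 have a length that is not a multiple of 3, and their stop codon is completed by the added A tail. The joined rows contain the gene pairs that share bases. The stretch shared by MT-ATP8 and MT-ATP6 spans 46 bases (chrM:8527-8572, plus strand), and is shown because reads from it cannot be assigned to a single gene. Its capitals mark the first codon of MT-ATP6 at the left and the last codon of MT-ATP8 at the right. The end of MT-ND4L shares 7 bases with the start of MT-ND4, which are in capitals in the second sequence (chrM:10740-10766). MT-ATP6 and MT-CO3 share 1 base. No bases are shared between genes that had rows of their own.
MT-ATP8 and MT-ATP6: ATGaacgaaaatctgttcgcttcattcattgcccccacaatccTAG
MT-ND4L and MT-ND4: cataacctaaacctactccaATGCTAA

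The nuclear genome holds copies of mitochondrial genes, which matter here because their rows and those of the mitochondrial genes can compete for reads. Copies close to complete lie side by side on chromosome 1, among them MTND2P28 (chr1:629640-630683), MTCO1P12 (chr1:631074-632616) and MTATP6P1 (chr1:633696-634376), all on the plus strand. In the GENCODE 29 transcripts MTND2P28 differed from MT-ND2 at 17 of 1042 aligned bases and MTATP6P1 from MT-ATP6 at 10 of 681. Of the stretches of 150 bases, the length of a read, 15.6% in MTND2P28 and 14.5% in MTCO1P12 were identical to the mitochondrial gene, while 0 of 532 in MTATP6P1 were. The 60 bases with the most differences from each pair are printed to show how few bases separate them, with the differing bases in capitals (MT-ND2 at chrM:4899-4958 against chr1:630069-630128, and MT-ATP6 at chrM:8642-8701 against chr1:633811-633870).
MT-ND2: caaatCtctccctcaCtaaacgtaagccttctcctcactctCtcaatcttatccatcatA
MTND2P28: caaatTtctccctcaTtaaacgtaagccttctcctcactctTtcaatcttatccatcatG
MT-ATP6: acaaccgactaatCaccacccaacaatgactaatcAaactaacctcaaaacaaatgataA
MTATP6P1: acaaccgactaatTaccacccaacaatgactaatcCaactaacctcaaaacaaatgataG

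The target was checked first. CCNK was at 6.90, 7.06 and 7.10 FPKM with scrambled siRNA, at 0.89, 0.82 and 0.72 with siCyclin K#1 and at 0.81, 0.92 and 0.80 with siCyclin K#2. Every siCyclin K library was below every scrambled library, as labelled, and the levels with the 2 siRNAs overlapped. Among the epithelial and A549 markers, ALDH1A1 averaged 549.9, 826.2 and 920.9 FPKM with scrambled siRNA, siCyclin K#1 and siCyclin K#2, and NQO1 190.3, 301.3 and 264.7. The row of AKR1B10, joined with AKR1B15, averaged 326.7, 142 and 186.8 FPKM. KRT8 averaged 55.3, 94.9 and 97.4 FPKM in the same order of groups, and KRT18 83.2, 74.1 and 90.2. CDH1 averaged 1.64, 3.88 and 1.71, and EPCAM was at 0.28 FPKM or less. The surfactant genes SFTPB and SFTPC were at 0.11 FPKM or less in each library, and SFTPA1 was not analysed here. PTPRC, PECAM1, VWF, DCN and COL1A2 did not pass 0.1 FPKM, and CD3E was not analysed here. COL1A1 averaged 2.03 FPKM with scrambled siRNA, 14.0 after siCyclin K#1 and 3.19 after siCyclin K#2.

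Mitochondrial rows were the most abundant in the tables. In each of the 9 libraries 8 of the 9 rows were among the 10 highest of all features, and MT-ND3, the lowest of them, ranked 11 or 12. With scrambled siRNA they summed to 69111, 69494 and 67015 FPKM, with siCyclin K#1 to 62090, 62657 and 62583, and with siCyclin K#2 to 55295, 56196 and 56817. As a share of the summed FPKM of the library this was 26.1% ± 0.376 (SD, n = 3) with scrambled siRNA, 24.9% ± 0.228 after siCyclin K#1 and 22.7% ± 0.275 after siCyclin K#2. The 3 groups did not overlap. Weighted by exon length, which turns FPKM into a share of reads on features with a reference gene, the shares were 11.4%, 10.3% and 9.24%.

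The share was lower in the 6 Cyclin K depleted libraries than in the 3 scrambled libraries by 2.31 percentage points (a difference of -2.31, p = 0.0238 by an exact two-sided test over permutations). The least p that 6 against 3 libraries allow is 0.0119. For siCyclin K#1 the difference from scrambled siRNA was -1.21 points and for siCyclin K#2 it was -3.40 points, each with an exact permutation p of 0.1, the smallest that 3 against 3 libraries can give. Between the siRNAs the share was 2.19 points higher with siCyclin K#1 (exact permutation p = 0.1). The call for both siRNAs was lost when rRNA rows and loci without a reference gene were both left out of the rows and of the sum (-1.28 points, exact permutation p = 0.0714) and when any siCyclin K#2 library, scrambled replicate 1 or scrambled replicate 2 was left out (exact permutation p = 0.0536 to 0.107). In bulk RNA, fewer mitochondrial genomes or organelles, less RNA from each, and fewer cells that are rich in them cannot be told apart.

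**Figure D1:**
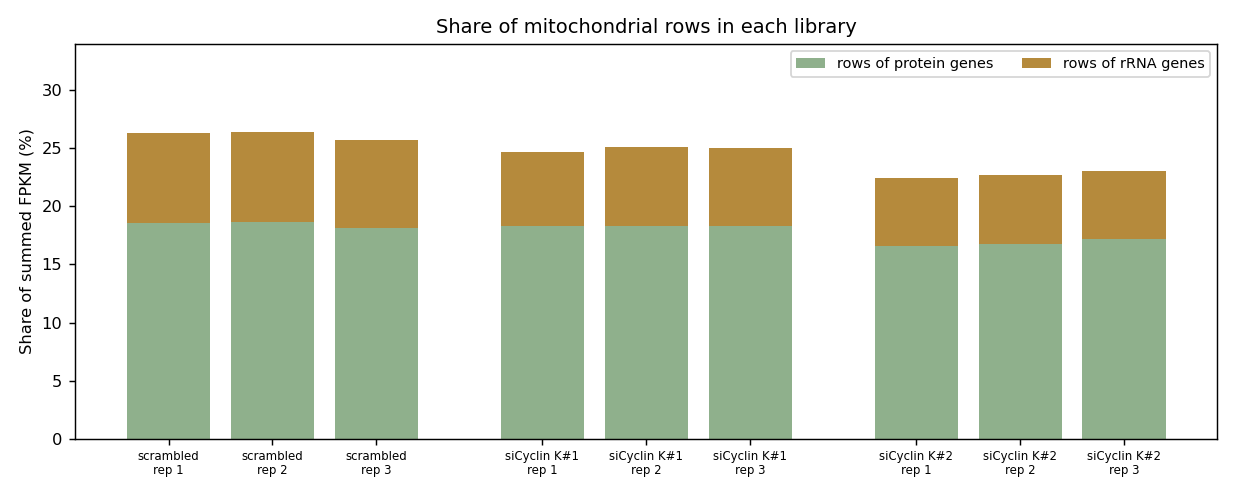
Bars give the share of the summed FPKM of each library (vertical axis, percent) held by mitochondrial rows, stacked as protein genes below and rRNA genes above, for 3 libraries (rep 1 to 3) in each group. The totals run from 25.7% to 26.4% with scrambled siRNA, from 24.7% to 25.1% after siCyclin K#1 and from 22.5% to 23.0% after siCyclin K#2.

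The rRNA and protein rows did not contribute alike. The 2 rRNA rows held 7.68% ± 0.0944 (SD, n = 3) of the summed FPKM with scrambled siRNA, 6.62% ± 0.231 after siCyclin K#1 and 5.89% ± 0.0600 after siCyclin K#2. The 7 protein rows held 18.5% ± 0.288, 18.3% ± 0.0395 and 16.9% ± 0.311. With siCyclin K#1 the protein share thus overlapped that of the scrambled libraries, whereas the rRNA share did not with either siRNA. The summed FPKM of the library itself was also lower, at 262107 ± 1349 with scrambled siRNA, 250382 ± 1063 after siCyclin K#1 and 246653 ± 611 after siCyclin K#2. Mitochondrial rows carried 52.0% of that difference after siCyclin K#1 and 80.5% after siCyclin K#2.

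MT-RNR2, the 16S rRNA of the large ribosomal subunit, was the row with the largest difference in FPKM with each siRNA. It was at 18419, 18371 and 17815 FPKM with scrambled siRNA, at 14233, 15261 and 14920 with siCyclin K#1, and at 12844, 12972 and 12708 with siCyclin K#2. The 3 groups did not overlap, and the row was behind 631250 to 969646 reads per library. The log2 difference was -0.30 ± 0.03 (SE, n = 3) for siCyclin K#1 (limma adjusted p = 9.72e-05) and -0.50 ± 0.03 for siCyclin K#2 (adjusted p = 7.41e-06). It carried 55.7% of the difference in mitochondrial FPKM after siCyclin K#1 and 43.1% after siCyclin K#2.

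MT-RNR1, the 12S rRNA of the small subunit, was at 1949, 1940 and 1923 FPKM with scrambled siRNA, at 1796, 1773 and 1766 with siCyclin K#1, and at 1643, 1734 and 1674 with siCyclin K#2. The 3 groups did not overlap. It fell by less than MT-RNR2, to a log2 difference of -0.12 ± 0.03 (limma adjusted p = 0.00455) and -0.20 ± 0.03 (adjusted p = 0.000377). The call for siCyclin K#1 was lost in 4 of 21 other settings (low values kept, quantile normalization, the same summed FPKM and eBayes without trend), and the difference was -0.25 after median-ratio rescaling. The level of MT-RNR2 per length was 9.40 ± 0.114 times that of MT-RNR1 (SD, n = 3) with scrambled siRNA, 8.33 ± 0.358 times after siCyclin K#1 and 7.63 ± 0.170 times after siCyclin K#2. Each mitochondrial ribosome holds both RNAs in equal number.

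The ratio of summed rRNA to summed protein FPKM was 0.416 ± 0.00273 with scrambled siRNA, 0.362 ± 0.0128 after siCyclin K#1 and 0.349 ± 0.00913 after siCyclin K#2. On the log2 scale it was lower with both siRNAs by a difference of -0.23, in 6 of 6 libraries (p = 0.0119 by the exact two-sided permutation test, as low as this design allows). For each siRNA the difference was -0.20 and -0.25 (exact permutation p = 0.1 for each). The difference between siCyclin K#1 and siCyclin K#2 was 0.05 (exact permutation p = 0.3), and the libraries of the siRNAs overlapped. Against the geometric mean of the protein rows it was 0.07, and without siCyclin K#1 replicate 1 it was 0.08 (exact permutation p = 0.1 for each, the least possible). With any other library left out the exact permutation p was 0.3 to 0.6. Since MT-RNR1 was the smaller rRNA row by far, this ratio follows MT-RNR2. Whether polyadenylated RNA was selected or rRNA was depleted is not given in the sources used here. Such steps set how much rRNA a library holds, so that the rRNA rows and this ratio describe the libraries, and their part in the differences was not tested.

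MT-CO1, the catalytic subunit of cytochrome c oxidase (complex IV), was at 15023, 15064 and 14583 FPKM with scrambled siRNA, at 15303, 15386 and 15625 with siCyclin K#1, and at 13063, 13297 and 13731 with siCyclin K#2. It was above scrambled siRNA in all 3 siCyclin K#1 libraries and below it in all 3 siCyclin K#2 libraries. For siCyclin K#1 the log2 difference was 0.05 ± 0.03 and did not pass the test (limma adjusted p = 0.199), and it was -0.07 after median-ratio rescaling, whereas it passed as higher in 3 of 21 other settings (quantile normalization and both scalings to the same summed FPKM). With siCyclin K#2 it fell, with a difference of -0.16 ± 0.03 (adjusted p = 0.00351). Quantile normalization, which sets each rank to a fixed value, turned this to 0.14, which passed as higher (adjusted p = 5.73e-05). The call was lost in 3 other settings (low values kept, the same summed FPKM and eBayes without trend). MT-CO1 replaced MT-RNR2 as the most abundant row in all 6 Cyclin K depleted libraries. The ratio of MT-RNR2 to MT-CO1 was 1.22 ± 0.00335 (SD, n = 3) with scrambled siRNA, 0.959 ± 0.0311 after siCyclin K#1 and 0.961 ± 0.0313 after siCyclin K#2.

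MT-CO2, the complex IV subunit that takes electrons from cytochrome c, was at 7799, 7856 and 7715 FPKM with scrambled siRNA, at 7576, 7181 and 7171 with siCyclin K#1, and at 6748, 6984 and 7216 with siCyclin K#2. It was lower in 6 of 6 depleted libraries, and the siRNA groups overlapped. The log2 difference was -0.09 ± 0.03 for siCyclin K#1 (limma adjusted p = 0.0596), which did not pass, and -0.16 ± 0.03 for siCyclin K#2 (adjusted p = 0.00704). For siCyclin K#1 it passed in 5 of 21 other settings. Among them were median-ratio rescaling (-0.22) and leaving out siCyclin K#1 replicate 1 or siCyclin K#2 replicate 1. For siCyclin K#2 the call was lost in 3, with low values kept, at the same summed FPKM and in eBayes without trend. Quantile normalization turned the siCyclin K#2 difference to 0.06, which passed as higher (adjusted p = 0.00906). The joined row of MT-ATP8 and MT-ATP6, subunits of ATP synthase, with MT-CO3 of complex IV was at 7978, 8055 and 7809 FPKM with scrambled siRNA, at 7782, 7887 and 7914 with siCyclin K#1, and at 6728, 6790 and 6904 with siCyclin K#2. It overlapped the scrambled libraries with siCyclin K#1 (log2 difference -0.02 ± 0.03, adjusted p = 0.665, although it passed at -0.14 after median-ratio rescaling) and fell with siCyclin K#2 (-0.22 ± 0.03, adjusted p = 0.00018).

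MT-ND1, MT-ND2 and MT-ND3 encode membrane subunits of complex I, the NADH dehydrogenase. MT-ND1 was at 6403, 6478 and 6022 FPKM with scrambled siRNA, at 5944, 5548 and 5626 with siCyclin K#1, and at 5081, 4956 and 5224 with siCyclin K#2. The 3 groups did not overlap, and the log2 differences were -0.14 ± 0.04 (limma adjusted p = 0.0186) and -0.31 ± 0.04 (adjusted p = 0.000401). MT-ND2 was at 5802, 5951 and 5459 FPKM with scrambled siRNA, at 4568, 4603 and 4579 with siCyclin K#1, and at 4683, 4789 and 4739 with siCyclin K#2. This was the only row of the 9 that was lower with siCyclin K#1 (-0.32 ± 0.03, adjusted p = 6.65e-05) than with siCyclin K#2 (-0.28 ± 0.03, adjusted p = 0.000276), although the difference between the siRNAs did not pass the test (-0.05 ± 0.03, adjusted p = 0.352). It passed in 2 of 21 other settings, at -0.12 after median-ratio rescaling and at -0.07 after quantile normalization.

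MT-ND3, the row of the lowest level, was at 1332, 1299 and 1437 FPKM with scrambled siRNA, at 1201, 1265 and 1218 with siCyclin K#1, and at 1130, 1172 and 1062 with siCyclin K#2. It rested on 11711 to 16125 reads per library, and the 3 groups did not overlap. Its log2 difference was -0.14 ± 0.05 (limma adjusted p = 0.0408) for siCyclin K#1 and -0.27 ± 0.05 (adjusted p = 0.00218) for siCyclin K#2. The joined row of MT-ND4L, MT-ND4 and MT-ND5, all of complex I, and MT-CYB, the cytochrome b of complex III, was at 4407, 4481 and 4253 FPKM with scrambled siRNA, at 3687, 3753 and 3766 with siCyclin K#1, and at 3376, 3503 and 3560 with siCyclin K#2. The 3 groups did not overlap, and the row fell with both siRNAs, by log2 differences of -0.23 ± 0.03 (adjusted p = 0.000321) and -0.33 ± 0.03 (adjusted p = 5.27e-05).

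**Figure D2:**
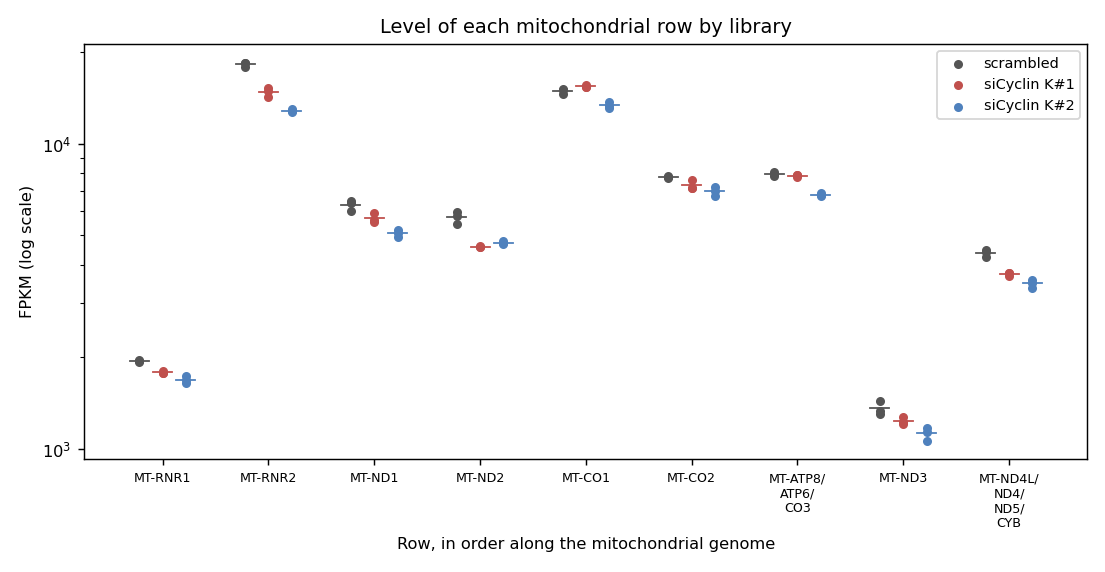
Each point is the FPKM of a row (vertical axis, log scale) in 1 library and each short line the mean of 3 libraries, with the rows ordered along the mitochondrial genome from the rRNA genes at the left. MT-RNR2 runs from 18419 FPKM with scrambled siRNA down to 12708 with siCyclin K#2, whereas MT-CO1 with siCyclin K#1 lies above its scrambled libraries.

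The order of the levels was close to the same in the 3 groups. From the highest it ran MT-RNR2, MT-CO1, the MT-ATP8/MT-ATP6/MT-CO3 row, MT-CO2, MT-ND1, MT-ND2, the MT-ND4L/MT-ND4/MT-ND5/MT-CYB row, MT-RNR1 and MT-ND3 with scrambled siRNA. MT-RNR2 and MT-CO1 changed places with both siRNAs, and MT-CO2 passed the MT-ATP8/MT-ATP6/MT-CO3 row with siCyclin K#2. Neighbours in this order did not overlap within a group, except MT-CO2 and the MT-ATP8/MT-ATP6/MT-CO3 row with scrambled siRNA and with siCyclin K#2. The replicates were tight, with a coefficient of variation of 0.392% to 5.29% over the 27 values of row and group and a median of 2.54%.

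Complex I rows were also set against complex IV rows, without the joined rows that hold MT-CO3, MT-ND4L, MT-ND4 and MT-ND5. MT-ND1, MT-ND2 and MT-ND3 summed to 0.590 ± 0.0101 (SD, n = 3) of MT-CO1 and MT-CO2 with scrambled siRNA, to 0.506 ± 0.00545 after siCyclin K#1 and to 0.538 ± 0.0118 after siCyclin K#2. The 3 groups did not overlap in this ratio, which was chosen after the values had been seen and was not tested. MT-ND2 was at 0.910 ± 0.00711 of MT-ND1 with scrambled siRNA, at 0.804 ± 0.0318 after siCyclin K#1 and at 0.932 ± 0.0308 after siCyclin K#2. With siCyclin K#1 this ratio lay below that of every scrambled library, and with siCyclin K#2 it overlapped the scrambled libraries. It was not tested.

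Over all features, FPKM were tested with limma on log2(FPKM + 0.1), with adjustment over 21048 features. With both siRNAs as 1 group 6 of the 9 rows fell and 0 rose at an adjusted p under 0.05, against 11.5% of all features tested that were lower and 17.0% that were higher. The 6 were MT-RNR2 (log2 difference -0.40 ± 0.08, adjusted p = 0.00465), MT-ND2 (-0.30 ± 0.05, adjusted p = 0.00253), the MT-ND4L/MT-ND4/MT-ND5/MT-CYB row (-0.28 ± 0.06, adjusted p = 0.00513), MT-ND1, MT-ND3 and MT-RNR1. In 7 rows all 6 depleted libraries were below all 3 scrambled libraries, which was so for 13.7% of all features. The median over the rows was -0.21, against 0.06 over all features. The calls of MT-RNR1, MT-ND1 and MT-ND3 had limma adjusted p of 0.0367 to 0.0416. They were lost in 12, 14 and 14 of 21 other settings, in that order. Among these were the fits without scrambled replicate 1, 2 or 3, where 3 rows were called each time. Without siCyclin K#2 replicate 1 or 3 they were lost as well, and 3 rows were called. When features with low values were kept, 0 rows passed by limma, and 0 had an unadjusted p under 0.05.

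For siCyclin K#1 6 rows fell, against 18.1% of all features, and 7 rows were below scrambled siRNA in every library, against 21.5%. For siCyclin K#2 9 of 9 rows fell, against 15.2% of all features, and 9 were below scrambled siRNA in every library, against 21.3%. The median log2 difference of the rows was -0.14 for siCyclin K#1, with 0.10 over all features, and -0.27 for siCyclin K#2, with 0.01 over all features. Median-ratio rescaling moved the median of all features for siCyclin K#1 by -0.11, so that it came to 0.00 (from 0.10), and the share of higher calls among all calls of that comparison from 59.7% to 49.6%. Then 8 of 9 rows fell with siCyclin K#1, beside 4688 of 20977 features that were lower and 4622 that were higher. Under quantile normalization a row that keeps its rank cannot change. There MT-ND2, MT-CO1, MT-CO2 and MT-ND3 turned to 0.04, 0.14, 0.06 and 0.04 with siCyclin K#2. In either direction 4 rows passed, among them MT-CO1 (limma adjusted p = 5.73e-05) and MT-CO2 (adjusted p = 0.00906) as higher. Of all 21048 features 3676 were higher and 3653 lower in that setting. Without scrambled replicate 1 or without siCyclin K#1 replicate 3, 4 rows were called for siCyclin K#1. The call of MT-ND3 for siCyclin K#1 was lost in 12 of 21 other settings, among them a replicate block and without scrambled replicate 1 or 3, siCyclin K#1 replicate 1 or 3, or siCyclin K#2 replicate 1, and that of MT-ND1 in 10, among them without scrambled replicate 1 or 2 and without siCyclin K#1 replicate 2 or 3. The comparisons of the siRNAs share the scrambled libraries.

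**Figure D3:**
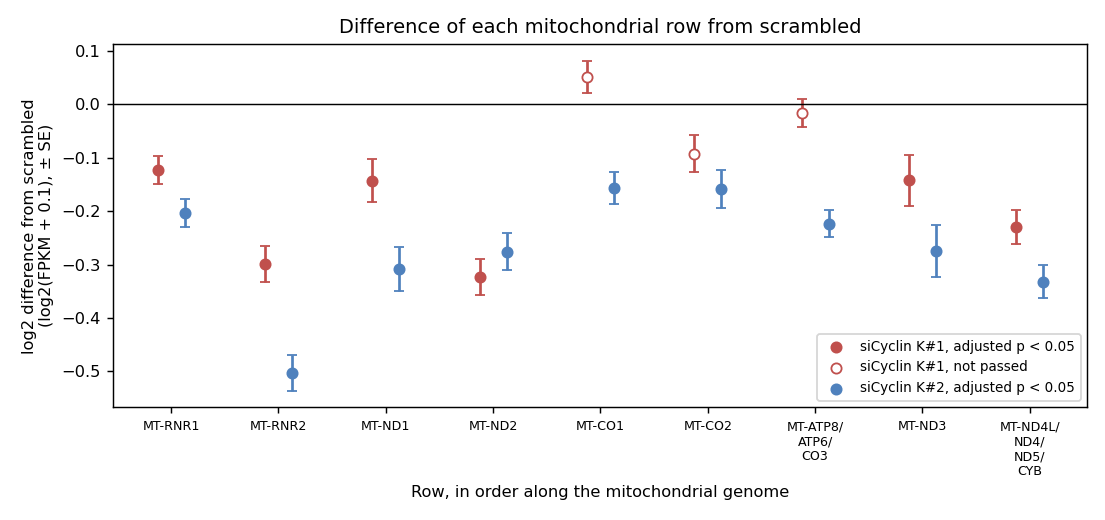
Points give the log2 difference of each row from scrambled siRNA on log2(FPKM + 0.1) with its SE (vertical axis), for 3 libraries of each siRNA against 3 scrambled libraries, and open points did not reach an adjusted p under 0.05. MT-CO1, MT-CO2 and the MT-ATP8/MT-ATP6/MT-CO3 row are open for siCyclin K#1 and filled for siCyclin K#2, and MT-RNR2 reaches -0.50. For siCyclin K#2 the sign of MT-ND2, MT-CO1, MT-CO2 and MT-ND3 turned under quantile normalization, where MT-CO1 and MT-CO2 passed as higher.

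None of the rows changed by 3-fold. The study's methods select genes at a fold change over 3 with a p under 0.01, while its results text names a lower fold. At the rule of its methods, with an unadjusted p, 0 rows were called by limma in any of the 4 comparisons. Of all features 2.29% were called for both siRNAs, 4.67% for siCyclin K#1, 1.94% for siCyclin K#2 and 1.53% between the siRNAs. The lowest fold was 0.706, for MT-RNR2 with siCyclin K#2. By limma 6 rows for both siRNAs, 7 for siCyclin K#1, 9 for siCyclin K#2 and 7 between the siRNAs had an unadjusted p under 0.05, against 39.0%, 50.6%, 43.0% and 38.4% of all features.

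The direct comparison of the siRNAs asked whether the rows differed between them. With siCyclin K#1 5 rows were higher than with siCyclin K#2, against 17.1% of all features, 0 were lower, against 12.3%, and 7 rows were higher in all 3 libraries, against 25.4%. They were MT-CO1 (log2 difference 0.21 ± 0.03, limma adjusted p = 0.000941), the MT-ATP8/MT-ATP6/MT-CO3 row (0.21 ± 0.03, adjusted p = 0.000396), MT-RNR2 (0.20 ± 0.03, adjusted p = 0.00185), MT-ND1 (0.17 ± 0.04, adjusted p = 0.0147) and the MT-ND4L/MT-ND4/MT-ND5/MT-CYB row (0.10 ± 0.03, adjusted p = 0.0369). The call of that last row was lost in 13 of 21 other settings, among them median-ratio rescaling, a replicate block and without scrambled replicate 1, siCyclin K#1 replicate 2 or 3, or siCyclin K#2 replicate 1 or 2, and that of MT-ND1 in 6, among them median-ratio rescaling and without siCyclin K#2 replicate 2. MT-RNR1 was at 0.08 ± 0.03 (adjusted p = 0.0523), MT-ND3 at 0.13 ± 0.05 (adjusted p = 0.0749) and MT-CO2 at 0.07 ± 0.03 (adjusted p = 0.204), and did not pass. CCNK differed by -0.06 ± 0.10 (adjusted p = 0.726) between the same libraries. With low values kept 0 rows passed by limma, where 5 had an unadjusted p under 0.05. After median-ratio rescaling 4 passed, among them MT-ND2 as lower (-0.12).

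Abundant features outside the mitochondrial rows moved both ways. Of the 17 features outside the mitochondrial rows and their nuclear copies with a mean of at least 500 FPKM, 8 fell and 4 rose with both siRNAs, against 11.5% and 17.0% of all features, with a median log2 difference of -0.18. For siCyclin K#1 10 fell and 5 rose, against 18.1% and 26.8% of all features (median -0.22), and for siCyclin K#2 8 fell and 5 rose, against 15.2% and 19.8% (median -0.16). The median of the mitochondrial rows was thus -0.14 beside -0.22 after siCyclin K#1 and -0.27 beside -0.16 after siCyclin K#2. The part of abundance in the mitochondrial differences was not tested.

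Nuclear copies were compared with the mitochondrial rows that they resemble. MTND2P28 was at 697.9, 674.1 and 676.2 FPKM with scrambled siRNA, at 518.1, 551.3 and 539.4 with siCyclin K#1, and at 519.3, 552.8 and 525.4 with siCyclin K#2. Its level was 11.1% to 12.4% of that of MT-ND2 in the 9 libraries, and it fell with each siRNA (log2 difference -0.35 ± 0.03, limma adjusted p = 4.57e-05, and -0.36 ± 0.03, adjusted p = 6.25e-05). MTCO1P12 was at 182.5, 179.8 and 175.4 FPKM, at 189.6, 181.1 and 185.2, and at 143.2, 151.1 and 160.0, in the same order of groups. It was 1.10% to 1.24% of MT-CO1, and like MT-CO1 it did not pass with siCyclin K#1 (0.05 ± 0.04, adjusted p = 0.400) and fell with siCyclin K#2 (-0.24 ± 0.04, adjusted p = 0.0018).

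The joined row of MTATP6P1, MTATP8P1 and MTCO3P12 was at 851.2, 868.1 and 843.7 FPKM with scrambled siRNA, at 746.5, 19.1 and 772.7 with siCyclin K#1, and at 700.2, 699.7 and 709.7 with siCyclin K#2. In 8 libraries this was 9.59% to 10.8% of the mitochondrial MT-ATP8/MT-ATP6/MT-CO3 row, and in siCyclin K#1 replicate 2 it was 0.242%. The mitochondrial row of that library, at 7887 FPKM, lay between those of its replicates. Loci without a reference gene held 4.19% of the summed FPKM in that library, and 3.91% and 3.86% in siCyclin K#1 replicates 1 and 3. Whether reads of the copies were assigned to such loci in that library was not tested. MTND1P23 and a joined row of MTND6P5 with JAK2, a kinase gene in which that copy lies, were the next in level, at 3.08 to 5.95 and at 3.40 to 6.47 FPKM over the 9 libraries. The row with JAK2 rose with siCyclin K#1 (log2 difference 0.41 ± 0.08, limma adjusted p = 0.00284) and fell with siCyclin K#2 (-0.37 ± 0.08, adjusted p = 0.00707). All nuclear copies, 118 rows, summed to 0.312% to 0.667% of the library, and adding them to the mitochondrial rows gave shares of 26.8%, 25.4% and 23.3% in the group order used above. How many reads of the copies come from mitochondrial RNA was not tested.

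**Figure D4:**
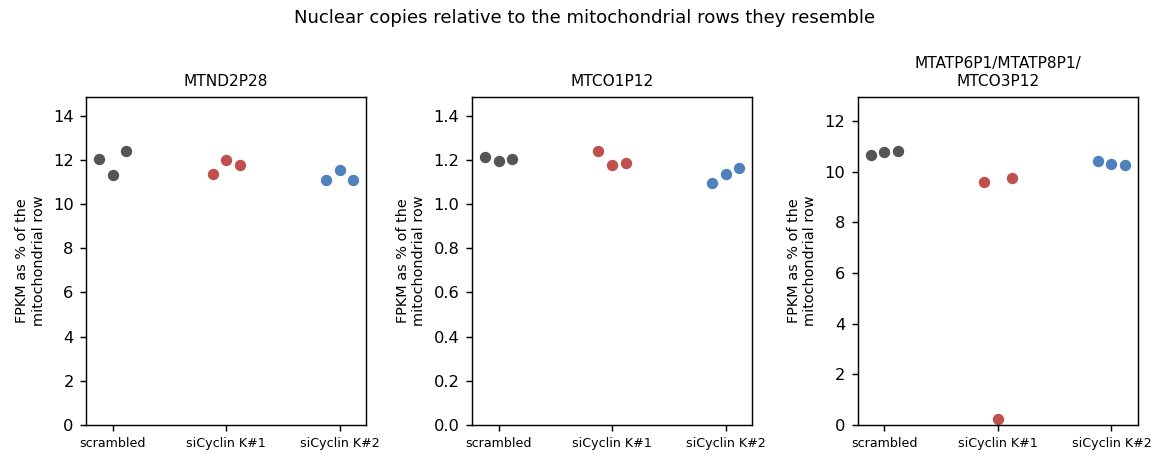
Points give the FPKM of a nuclear copy as a percent of that of the mitochondrial row it resembles (vertical axis from 0, a scale of its own in each panel), with 1 point per library and 3 libraries per group. The share is near 12% for MTND2P28, near 1.2% for MTCO1P12, and near 10% for the third row except in siCyclin K#1 replicate 2, at 0.242%.

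Nuclear genes that act on mitochondrial DNA and RNA were compared as lists. Of 31 tested genes of mitochondrial DNA replication and transcription, 4 rose and 7 fell with both siRNAs, against 17.0% and 11.5% of all features, with a median log2 difference of -0.13 beside 0.06 over all features. Calls were more frequent among expressed features. When only features with a mean of at least 1 FPKM were tested, 3072 of 11243 rose and 2120 fell. TFAM, which packages mitochondrial DNA and starts its transcription, was at 43.6, 38.3 and 42.1 FPKM with scrambled siRNA, at 21.8, 21.7 and 23.3 with siCyclin K#1 and at 25.5, 23.8 and 22.3 with siCyclin K#2. The groups of depleted libraries lay apart from the scrambled libraries and overlapped each other, and TFAM fell with both (log2 difference -0.84 ± 0.07, limma adjusted p = 2.59e-05). TOP1MT, the mitochondrial topoisomerase, rose from 1.31 ± 0.0615 FPKM (SD, n = 3) to 6.59 ± 0.462 and 5.44 ± 0.273. LONP1, a protease of the matrix that degrades TFAM among others, rose from 6.62 ± 0.880 FPKM to 17.0 ± 0.379 and 22.9 ± 0.682.

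POLRMT, the mitochondrial RNA polymerase, went opposite ways with the siRNAs. It was at 23.2, 23.6 and 23.9 FPKM with scrambled siRNA, at 20.6, 20.7 and 21.004 with siCyclin K#1 and at 28.1, 30.5 and 32.1 with siCyclin K#2. It fell with siCyclin K#1 (log2 difference -0.18 ± 0.05, limma adjusted p = 0.0136), rose with siCyclin K#2 (0.35 ± 0.05, adjusted p = 0.000501), and the difference between them passed the test as well (-0.54 ± 0.05, adjusted p = 6.46e-05). TFB2M, the factor that opens the promoter for POLRMT, fell with both siRNAs (-0.19 ± 0.06, adjusted p = 0.0319), and so did TEFM, the elongation factor (-0.37 ± 0.09, adjusted p = 0.012). The call of TFB2M was lost in 11 of 21 other settings, among them a replicate block and without any 1 scrambled or siCyclin K#2 library, and that of TEFM in 1, without scrambled replicate 1. NRF1 and GABPA, nuclear factors of mitochondrial genes, had differences of -0.08 ± 0.11 (adjusted p = 0.633, in a row shared with a 5S rRNA pseudogene) and 0.04 ± 0.10 (adjusted p = 0.795). PPARGC1A, their coactivator, was at 0.02 FPKM or less in all libraries and was not tested.

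Of 40 genes of mitochondrial RNA processing and turnover, 3 rose and 16 fell with both siRNAs, against 17.0% and 11.5% of all features, and the median was -0.25. MRM3, a methyltransferase of the 16S rRNA, had the largest difference of those that passed with at least 1 FPKM (21.2 ± 1.02 FPKM with scrambled siRNA, 11.5 ± 1.56 after siCyclin K#1 and 14.2 ± 1.85 after siCyclin K#2, log2 difference -0.74 ± 0.13, limma adjusted p = 0.00246). TRMU and NSUN3, which modify mitochondrial tRNAs, fell by differences of -0.65 ± 0.11 (adjusted p = 0.00152) and -0.63 ± 0.11 (adjusted p = 0.00164). PNPT1, a nuclease of the mitochondrial degradosome, fell (-0.42 ± 0.07, adjusted p = 0.000977), while its helicase partner SUPV3L1 was at -0.10 ± 0.07 (adjusted p = 0.35). LRPPRC, which with SLIRP stabilises mitochondrial mRNAs, was at 62.7 ± 1.53, 63.7 ± 0.444 and 59.7 ± 0.385 FPKM and did not pass (-0.02 ± 0.05, adjusted p = 0.768), nor did SLIRP (adjusted p = 0.228) or TBRG4, also named FASTKD4 (adjusted p = 0.139), each in a row shared with a neighbouring gene. For siCyclin K#1 alone the rows of SLIRP (-0.31 ± 0.05, adjusted p = 0.0006) and TBRG4 (-0.42 ± 0.08, adjusted p = 0.0024) fell, and for siCyclin K#2 they were at -0.03 ± 0.05 (adjusted p = 0.678) and -0.10 ± 0.08 (adjusted p = 0.41).

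Of 18 translation factors of mitochondria, 2 rose and 5 fell with both siRNAs, against 17.0% and 11.5% of all features, and the median was -0.03. MRRF, the ribosome recycling factor, fell from 3.08 ± 0.157 FPKM to 2.11 ± 0.144 and 1.81 ± 0.0565, MTRF1L, a release factor, from 8.14 ± 0.115 to 5.79 ± 0.505 and 6.57 ± 0.0982, and COA3, which couples the making of MT-CO1 to assembly, from 21.3 ± 0.867 to 17.1 ± 0.868 and 15.3 ± 0.532. Limma adjusted p were 0.00151, 0.00727 and 0.00305. Of 73 nuclear subunits of complexes I, III, IV and V, 8 rose and 22 fell, against 17.0% and 11.5% of all features, and the median was -0.19. NDUFB1 of complex I (log2 difference -0.83 ± 0.12, limma adjusted p = 0.000665) and ATP5MC1, the c subunit of ATP synthase (-0.74 ± 0.15, adjusted p = 0.00417), fell.

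Of 20 markers of mitochondrial mass, 3 rose and 4 fell with both siRNAs, against 17.0% and 11.5% of all features, and the median was -0.12. TOMM22, an import receptor of the outer membrane, rose from 7.56 ± 0.621 FPKM to 19.6 ± 1.45 and 26.8 ± 0.646 (log2 difference 1.59 ± 0.14, limma adjusted p = 4.34e-05). HSPD1, the matrix chaperonin, rose from 93.2 ± 1.62 FPKM to 133.9 ± 3.29 and 152.9 ± 7.08 (0.62 ± 0.07, adjusted p = 0.00017). HSPE1, its partner, in a row joined with MOB4, fell (-0.57 ± 0.15, adjusted p = 0.0163), a call lost without scrambled replicate 1 or 2. For each siRNA the libraries were fitted as 3 groups, in which 26.8% of all features rose and 18.1% fell for siCyclin K#1, while 19.8% rose and 15.2% fell for siCyclin K#2. Of 11243 features with a mean of at least 1 FPKM, tested alone, 4253 rose and 3254 fell for siCyclin K#1. For siCyclin K#2 3698 of them rose and 2736 fell. There were 5 higher and 22 lower of 40 RNA processing genes for siCyclin K#1 and 4 higher and 19 lower for siCyclin K#2, and 15 higher and 35 lower of 73 respiratory chain subunits for siCyclin K#1 and 13 higher and 28 lower for siCyclin K#2. The mass markers had 4 higher and 8 lower for siCyclin K#1 and 7 higher and 5 lower for siCyclin K#2, of 20 tested.

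**Figure D5:**
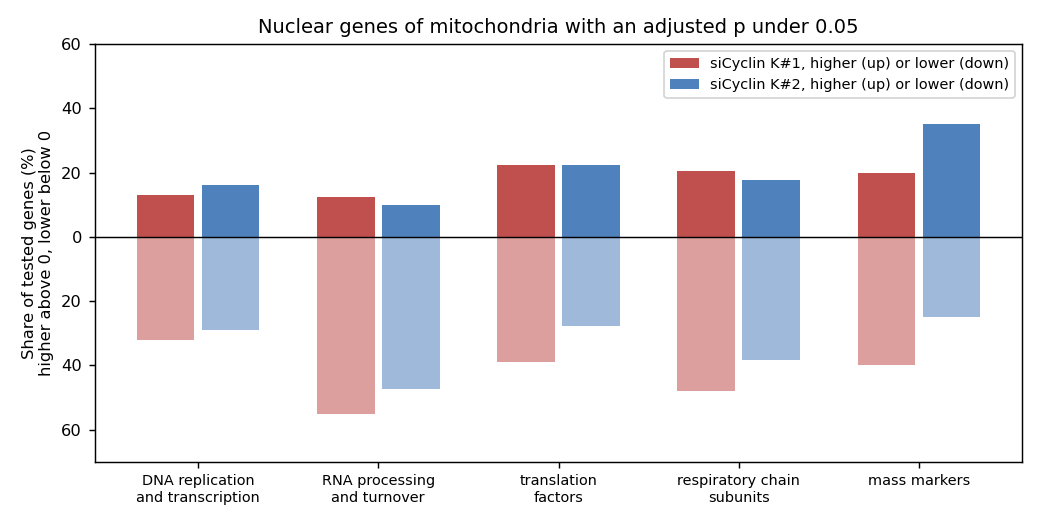
Bars give the share of tested genes in each nuclear list (vertical axis, percent) that was higher (above 0) or lower (below 0, paler) than with scrambled siRNA at a limma adjusted p under 0.05, for each siRNA with 3 libraries per group. More genes were lower than higher in each list and with each siRNA, except the mass markers with siCyclin K#2, with 7 higher and 5 lower of 20. Of all features 26.8% were higher and 18.1% lower for siCyclin K#1, and 19.8% and 15.2% for siCyclin K#2.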

How the data were processed

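RNA from 9 libraries of A549 cells was sequenced as paired reads of 150 bases on an Illumina HiSeq X system. The authors deposited FPKM per feature and library, made with StringTie 1.3.3b per the labels. The aligner and the library preparation beyond standard Illumina protocols are not given in the sources used here. Groups and replicate numbers come from the sample titles. The members and gene lists were chosen with earlier results of these data known. The labels name 3 independent samples per group, but not whether these were separate transfections, so p-values measure the spread between libraries, which may be technical.

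FPKM of rows that named the same reference gene were added up, rows without one were left out, and features with at least 0.1 FPKM in at least 3 libraries were kept. In 6 files 22 symbols had been turned into dates and were taken from the other files. Differences were tested with limma 3.58.1 in R 4.3.3 (lmFit, eBayes with trend) on log2(FPKM + 0.1) with Benjamini-Hochberg adjustment, as 2 groups for both siRNAs and as 3 groups otherwise. Fold changes are on that scale. The fit was tested on simulated data. Shares and ratios had an exact permutation test with scipy 1.17.1. Depth came from values worth under 8 reads, and reads were called whole within 0.02. Named nuclear genes were the 3 largest changes per list with an adjusted p under 0.05 and a mean of at least 1 FPKM, with TFAM, POLRMT, TFB2M, TEFM, LRPPRC, SLIRP, PNPT1, SUPV3L1, TBRG4, PPARGC1A, NRF1, GABPA and CCNK, and the 5 highest nuclear copies. A gene that this rule named is not reported here. Sequences and coordinates are those of GENCODE 29 (GRCh38), whose coordinates were identical to those in the files for all 14 genes, aligned with Biopython 1.88. MT-ND6 relative to the other protein genes was planned and has no value, as no row named MT-ND6.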

Additional observations from a re-analysis of the deposited data

Results flagged for a closer look

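A library far from the others of its kind was looked for among the 6 Cyclin K depleted libraries in 42 values, and 2 were found, where chance would give about 2.1. The expected number takes no account of how far a flagged library lies from the others. The joined row of MTATP6P1, MTATP8P1 and MTCO3P12 was at 19.11 FPKM in siCyclin K#1 replicate 2, with the other 5 depleted libraries at 699.7 to 772.7. TEFM was at 3.307 FPKM in siCyclin K#2 replicate 1, with the other 5 at 2.66 to 2.79.

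The siRNAs differed from each other by the direct limma comparison in 5 of the 9 mitochondrial rows. The log2 difference of siCyclin K#1 minus siCyclin K#2 was 0.205 for MT-RNR2, 0.165 for MT-ND1, 0.208 for MT-CO1, 0.208 for the MT-ATP8/MT-ATP6/MT-CO3 row and 0.103 for the MT-ND4L/MT-ND4/MT-ND5/MT-CYB row. Of the 25 nuclear genes named and tested, 15 differed as well, against 17.1% of all features that were higher and 12.3% that were lower, and a part of the 25 had been chosen for the size of their change from scrambled siRNA. TOP1MT (0.271), COA3 (0.161), TFB2M (0.123) and LRPPRC (0.093) were higher with siCyclin K#1. LONP1 (-0.428), TRMU (-0.284), NSUN3 (-0.244), ATP5MC1 (-0.478), TOMM22 (-0.453), HSPD1 (-0.19), the row of HSPE1 (-0.433), POLRMT (-0.537), the row of SLIRP (-0.285), the row of TBRG4 (-0.325) and GABPA (-0.251) were lower. These are differences in level of the same genes for which CCNK itself differed by -0.06 (limma adjusted p = 0.726).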

How the results depend on the processing

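The ratio of rRNA to protein rows with both siRNAs kept its direction and its side of the threshold under all alternatives run, at -0.24 to -0.19. The share kept its direction throughout. With both siRNAs it was -2.56 to -2.03 points when a library was left out and -1.28 for protein genes among features with a reference gene, with rRNA left out of the sum. Of 9 rows, the number with a limma adjusted p under 0.05 for both siRNAs, siCyclin K#1, siCyclin K#2 and the siRNAs against each other was 6, 6, 9 and 5. It was 7, 7, 9 and 7 at a mean of at least 1 FPKM, 7, 8, 9 and 4 after median-ratio rescaling, 8 for both siRNAs when the siRNAs were fitted as 3 groups, 0, 3, 7 and 0 with low values kept, 2, 2, 4 and 4 after quantile normalization, 3, 4, 7 and 4 at the same summed FPKM, 3, 5, 9 and 7 at the same summed FPKM without mitochondrial rows, 3, 3, 7 and 3 in eBayes without trend, 3, 4, 9 and 3 with loci that have no reference gene, 3, 4, 9 and 3 at an adjusted p under 0.01, and 0 in each at a fold change over 3 with an unadjusted p under 0.01. Leaving out a library gave 3 to 6, 4 to 6, 9 to 9 and 4 to 6. Over all features, 3584 were higher and 2431 lower for both siRNAs, of 21048. For siCyclin K#1 5635 were higher and 3800 lower, for siCyclin K#2 4161 and 3192, and between the siRNAs 3600 and 2591. After median-ratio rescaling they were 3053 and 2986, 4622 and 4688, 3734 and 3630, and 2836 and 3230 in the same order, of 20977. For both siRNAs the counts were 3216 and 2244, of 31080, with low values kept. They were 3080 and 3007 after quantile normalization, 4249 and 1951 at the same summed FPKM, and 3406 and 2186 in eBayes without trend. All of these row counts take calls in either direction. After quantile normalization MT-CO1 passed as higher for both siRNAs, siCyclin K#1 and siCyclin K#2, and MT-CO2 for siCyclin K#2. Between the siRNAs MT-ND2, MT-CO2 and MT-ND3 then passed as lower. MT-ND2 did so after median-ratio rescaling too. At the same summed FPKM, with or without mitochondrial rows, MT-CO1 passed as higher for siCyclin K#1. With low values kept, the cause of the loss was not tested. MT-RNR2 passed with each siRNA under all 21 settings of the fit, with its log2 difference between -0.42 and -0.14 for siCyclin K#1 and between -0.55 and -0.14 for siCyclin K#2.

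Quantile normalization sets each rank to a fixed value, so that a row can move only when it changes rank. The log2 differences that turned under it were MT-ND2 (0.011 for both siRNAs, 0.044 for siCyclin K#2), MT-CO1 (0.136 and 0.136), MT-CO2 (0.028 and 0.057, and -0.057 between the siRNAs), MT-ND3 (0.038 for siCyclin K#2, -0.113 between the siRNAs), LRPPRC (0.051) and GABPA (-0.066). At the same summed FPKM, MT-CO1 for both siRNAs (0.025), the MT-ATP8/MT-ATP6/MT-CO3 row for siCyclin K#1 (0.050) and LRPPRC (0.053) turned, and without mitochondrial rows in that sum the joined row (0.027) and LRPPRC (0.0091). After median-ratio rescaling MT-CO1 for siCyclin K#1 (-0.071), MT-CO2 between the siRNAs (-0.00804) and GABPA (-0.041) turned, and GABPA was at -0.00295 to 0.0868 with a library left out. None of these passed the test before, except MT-ND2, MT-CO1, MT-CO2 and MT-ND3 for siCyclin K#2 and MT-ND2 for both siRNAs.

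Counts of calls for both siRNAs changed over all features too. Of 21048 features 3584 were higher and 2431 lower. These were 5251 and 3825 with the siRNAs fitted as 3 groups, and 2865 and 1908 with a replicate block. With a library left out they were 2604 to 3647 and 1609 to 2445, and at a fold change over 3 there were 483 calls. In the nuclear lists, genes of DNA replication and transcription with a call went from 11 to 18 with 3 groups and to 7 with a replicate block. They went to 4 at an adjusted p under 0.01 and to 1 at a fold change over 3, and were 6 to 12 with a library left out. Mass markers went from 7 to 15 with 3 groups, to 4 at an adjusted p under 0.01 and to 1 at a fold change over 3, and were 4 to 7 with a library left out. Translation factors went from 7 to 4 at an adjusted p under 0.01. RNA processing genes were 12 to 21 with a library left out, beside 19. At a fold change over 3 RNA processing genes, translation factors and respiratory chain subunits had 0 calls.

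Groups have replicate numbers in common. Deviations of libraries with the same number were not correlated (mean r = -0.00585 over 9 pairs, from -0.0711 to 0.0379, across 11243 genes, which are not independent replicates). With a replicate block 3, 5, 9 and 4 rows passed for both siRNAs, siCyclin K#1, siCyclin K#2 and the siRNAs against each other. Of all 21048 features 2865, 5377, 3922 and 3227 were then higher, and 1908, 3685, 3025 and 2453 lower, in the same order. Without the block 3584 were higher and 2431 lower for both siRNAs.

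Depth did not limit these rows, which rest on at least 11711 reads each where a row holds 1 gene. With 3 libraries a group, an exact test of a share or ratio for a single siRNA cannot pass, and FPKM give no absolute amount of RNA.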

Other observations

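RNAs of the nucleus and short noncoding RNAs were read as a check of the RNA fraction. Of 9 such rows tested, 1 was higher and 0 were lower with both siRNAs (limma adjusted p under 0.05), against 17.0% and 11.5% of all features. The higher one was SNORD3A, a small nucleolar RNA, at 1.19 FPKM on average with scrambled siRNA, 3.01 after siCyclin K#1 and 1.60 after siCyclin K#2. MALAT1, a long nuclear RNA, was at 10.2, 2.86 and 7.94 FPKM with scrambled siRNA, at 12.2, 90.8 and 9.05 with siCyclin K#1, and at 18.9, 33.7 and 10.9 with siCyclin K#2. The high value belongs to siCyclin K#1 replicate 2, the library in which the row of MTATP6P1, MTATP8P1 and MTCO3P12 was at 19.1 FPKM. Whether the level of MALAT1 and that row are linked was not tested. RN7SL2, the RNA of the signal recognition particle, was at 40.3 to 45.4 FPKM with scrambled siRNA and at 21.4 to 47.2 in the depleted libraries. These values were picked after they had been seen, and their part in the mitochondrial rows was not tested.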
